A study of Arabidopsis thaliana with 4 samples.

Results

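The genes described here are 10 Arabidopsis genes known as markers of sulfur limitation, of 34262 genes in the tables analysed. They are SDI1 and SDI2, LSU1, LSU2 and LSU3, GGCT2;1, BGLU28 and the sulfate transporter genes SULTR1;1, SULTR1;2 and SULTR4;2. They were matched by locus, through their chromosomal position, and all 10 were found with a fold change in all 3 tables. They were chosen by name as markers of this response, but the list was drawn up after values of several of its genes had been seen in these tables, so their levels, fold changes and FDR values are given as a description and are not independent evidence of a direction. The match by locus mattered, because the symbols in the tables differ from those of RefSeq: AT4G08620 (SULTR1;1) carries the name SULTR1_3, AT1G22150 (SULTR1;3) the name SULTR1_1, AT3G12520 (SULTR4;2) the name SULTR4_1 and AT5G26220 (GGCT2;1) the name GGCT2_3.

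The series holds RNA-seq of whole seedlings of the Col-0 ecotype, 14 days old, kept in long days at 22 °C. The tested genotypes are labelled hda6, ldl1/2 and hda6/ldl1/2, and each is set against WT, the wild type without these mutations; GEO lists 1 sample for each of the 4 genotypes and names no alleles. The HDA6 protein removes acetyl groups from histones, and the LDL proteins resemble the human histone demethylase LSD1. Each table holds the authors' own comparison of 1 mutant with WT: the larger of the 2 group means in RPKM (reads divided by exon length and by library size), a log2 fold change with its p-value, and an FDR. The smaller mean was rebuilt here from the fold change. A gene is called higher or lower past the FDR where the deposited FDR is under 0.05.

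The targeted transcripts go against one of the labels. LDL1 and LDL2 fell in ldl1/2, with log2 fold changes of -0.79 and -1.17 in the authors' deposited table, whereas in the hda6/ldl1/2-labelled samples they stood at 0.05 and -0.32 (FDR 0.585 for LDL2) in the authors' deposited table. HDA6 was not lower where it is labelled mutant, with log2 fold changes of 0.53 in hda6 and 0.59 in the hda6/ldl1/2-labelled samples in the authors' deposited table. RNA levels leave the state of the protein unknown, so each direction below holds for the samples as labelled. Low group means fell on steps of whole reads when 2 libraries were set for each mutant and 3 for WT. Their sizes, between 40.2 and 51.6 M reads each, were fitted to the same values. Neither the numbers nor the sizes of the libraries were tested separately. The sources used here do not say whether these libraries came from separate plants, so deposited p-values may measure technical spread only.

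Plants take up sulfate through root transporters, reduce it and build it into cysteine, from which glutathione and, by way of methionine, the aliphatic glucosinolates are made. When sulfur runs short, roots make more sulfate transporters, vacuoles release stored sulfate, and glutathione and glucosinolates are broken down to recover their sulfur. The genes of this response are controlled to a large part by the transcription factor SLIM1, and several of them also respond to O-acetylserine, the carbon skeleton of cysteine.

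The upstream sequences of the 4 genes with the largest fold changes in ldl1/2 are shown to let a reader compare genes that were high together. Each is the stretch of 300 bases before the annotated gene start, in the direction of transcription, read from the RefSeq genome TAIR10.1; the submitters' processing notes name TAIR10. Capitals mark GAGAC, the core of the sulfur-responsive element first described in SULTR1;1, or its complement GTCTC.
BGLU28 (chr2:18346006-18346305, plus strand): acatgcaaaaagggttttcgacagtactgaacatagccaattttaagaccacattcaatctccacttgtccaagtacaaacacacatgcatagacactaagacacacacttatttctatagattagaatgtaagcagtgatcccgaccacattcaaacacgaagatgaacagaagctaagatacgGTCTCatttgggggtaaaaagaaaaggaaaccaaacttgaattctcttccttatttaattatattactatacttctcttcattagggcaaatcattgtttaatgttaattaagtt
GGCT2;1 (chr5:9164885-9165184, minus strand): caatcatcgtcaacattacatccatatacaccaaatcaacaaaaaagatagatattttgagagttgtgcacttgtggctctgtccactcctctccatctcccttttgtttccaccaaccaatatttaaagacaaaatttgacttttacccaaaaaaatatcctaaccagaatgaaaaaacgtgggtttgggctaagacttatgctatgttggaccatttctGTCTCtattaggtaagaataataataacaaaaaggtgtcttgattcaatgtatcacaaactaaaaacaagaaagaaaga
SDI1 (chr5:19807854-19808153, minus strand): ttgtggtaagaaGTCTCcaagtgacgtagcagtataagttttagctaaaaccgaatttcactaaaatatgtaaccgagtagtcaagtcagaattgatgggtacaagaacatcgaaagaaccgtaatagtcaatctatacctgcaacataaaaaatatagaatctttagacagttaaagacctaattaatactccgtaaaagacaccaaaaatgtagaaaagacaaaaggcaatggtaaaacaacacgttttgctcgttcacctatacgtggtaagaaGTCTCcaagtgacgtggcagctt
LSU1 (chr3:18375941-18376240, minus strand): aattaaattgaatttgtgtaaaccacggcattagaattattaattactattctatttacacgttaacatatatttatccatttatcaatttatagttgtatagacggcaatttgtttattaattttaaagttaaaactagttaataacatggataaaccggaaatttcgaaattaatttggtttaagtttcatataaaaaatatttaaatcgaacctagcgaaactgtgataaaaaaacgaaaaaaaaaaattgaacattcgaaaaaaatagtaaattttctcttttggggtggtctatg
The core was searched as GAGAC on both strands, and the longer GGAGACA, which contains it, likewise. BGLU28 and GGCT2;1 held 1 match each, SDI1 held 2 and LSU1 none. Of the 10 genes, 3 (30%) held the core in this window, against 30.5% of 33183 such windows of nuclear genes, and none held GGAGACA, which occurred in 2.69% of those windows. SULTR1;1 itself held no match in its 300 bases. Sequence farther upstream was not searched, so these counts do not say which of the genes carry the element. Both matches of SDI1 lie in a repeat of 25 bases, gtggtaagaaGTCTCcaagtgacgt, whose copies begin at -298 and -33, counted from the gene start. An exact repeat at least as long was present in 290 of the 33183 windows (0.874%); it was looked for after the sequence had been seen. A match of letters is a description and does not show that a factor binds there.

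SDI1 and SDI2 encode tetratricopeptide repeat proteins, and in Arabidopsis both are known to restrain glucosinolate synthesis under sulfur limitation. SDI1 (AT5G48850, chromosome 5, 19805437 to 19807853) had group means of 8.63 RPKM in hda6 (rebuilt), 226 RPKM in ldl1/2, 51.9 RPKM in the hda6/ldl1/2-labelled samples and 29.4 RPKM in WT. Its mean was thus highest in ldl1/2 and lowest in hda6. Its log2 fold changes were -1.71 in hda6 (FDR 2.17e-07), 2.90 in ldl1/2 (FDR listed at 0) and 0.93 in the hda6/ldl1/2-labelled samples (FDR 0.0146) in the authors' deposited table. An FDR listed at 0 goes with a p-value listed at 0, where the smallest p-value above 0 in the tables is 1.11e-16. SDI2 (AT1G04770, chromosome 1, 1336274 to 1337849) differed less in value, with 24.7 RPKM in hda6 (rebuilt), 59.0 RPKM in ldl1/2, 32.1 RPKM in the hda6/ldl1/2-labelled samples and 30.7 RPKM in WT. For SDI2 only the difference in ldl1/2 passed the FDR, at a log2 fold change of 0.91 (FDR 4.06e-13), against -0.26 in hda6 (FDR 0.272) and 0.20 in the hda6/ldl1/2-labelled samples (FDR 0.357) in the authors' deposited table.

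LSU1, LSU2 and LSU3 encode small proteins named for their response to low sulfur, which bind many partners. LSU1 (AT3G49580, chromosome 3, 18374908 to 18375940) had 11.9 RPKM in hda6 (rebuilt), 230.0 RPKM in ldl1/2, 59.3 RPKM in the hda6/ldl1/2-labelled samples and 37.2 RPKM in WT. LSU2 (AT5G24660, chromosome 5, 8443279 to 8444101) had 26.6 RPKM in hda6 (rebuilt), 212 RPKM in ldl1/2, 69.7 RPKM in the hda6/ldl1/2-labelled samples and 43.9 RPKM in WT. LSU3 (AT3G49570, chromosome 3, 18372404 to 18373147) had 11.4 RPKM in hda6 (rebuilt), 116 RPKM in ldl1/2, 43.5 RPKM in the hda6/ldl1/2-labelled samples and 21.3 RPKM in WT. All 3 LSU genes thus had the same order of genotypes as SDI1. In hda6 the authors' deposited table lists log2 fold changes of -1.58 for LSU1 (FDR 3.14e-11), -0.67 for LSU2 (FDR 0.00103) and -0.85 for LSU3 (FDR 0.000183). In ldl1/2 they were 2.59, 2.24 and 2.41 in the authors' deposited table, each with an FDR listed at 0. In the hda6/ldl1/2-labelled samples they were 0.79 for LSU1 (FDR 0.00359), 0.79 for LSU2 (FDR 1.62e-05) and 1.15 for LSU3 (FDR 8.4e-09) in the authors' deposited table.

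GGCT2;1 encodes a gamma-glutamyl cyclotransferase that breaks down glutathione, and BGLU28 a beta-glucosidase known to release sulfur from glucosinolates. GGCT2;1 (AT5G26220, chromosome 5, 9162969 to 9164884) had 9.16 RPKM in hda6 (rebuilt), 154 RPKM in ldl1/2, 44.9 RPKM in the hda6/ldl1/2-labelled samples and 13.4 RPKM in WT. It was higher in ldl1/2 by 3.49 and in the hda6/ldl1/2-labelled samples by 1.87 on the log2 scale, both with an FDR listed at 0, while -0.49 in hda6 did not pass (FDR 0.145), in the authors' deposited table. BGLU28 (AT2G44460, chromosome 2, 18346306 to 18350026) had 2.41 RPKM in hda6, 33.8 RPKM in ldl1/2, 8.86 RPKM in the hda6/ldl1/2-labelled samples and 2.14 RPKM in WT (rebuilt). It had the largest fold change of the 10 genes in ldl1/2, a log2 value of 3.95 (15.4-fold, FDR listed at 0), and in the hda6/ldl1/2-labelled samples, 2.17 (FDR 1.01e-13), in the authors' deposited table. It was also the only one of the 10 with a mean above WT in hda6, by 0.23 on the log2 scale, which did not pass the FDR (listed at 1.00) in the authors' deposited table.

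SULTR1;1 and SULTR1;2 encode the high-affinity transporters that bring sulfate into the root, and SULTR4;2 a transporter that lets sulfate out of the vacuole. SULTR1;1 (AT4G08620, chromosome 4, 5500313 to 5506313) had 0.465 RPKM in hda6 (rebuilt), 2.1 RPKM in ldl1/2, 0.460 RPKM in the hda6/ldl1/2-labelled samples (rebuilt) and 0.497 RPKM in WT. Its level outside ldl1/2 was low, about 58.9 reads per library in WT at the fitted library sizes. It was higher in ldl1/2 by 2.05 on the log2 scale (FDR 1.84e-05) and stood at -0.04 in hda6 and 0.02 in the hda6/ldl1/2-labelled samples in the authors' deposited table. SULTR1;2 (AT1G78000, chromosome 1, 29327515 to 29333220) had 10.2 RPKM in hda6 (rebuilt), 30.8 RPKM in ldl1/2, 13.3 RPKM in the hda6/ldl1/2-labelled samples (rebuilt) and 13.6 RPKM in WT. Its log2 fold changes were -0.36 in hda6 (FDR 0.0376), 1.15 in ldl1/2 (FDR listed at 0) and 0.10 in the hda6/ldl1/2-labelled samples (FDR 0.872) in the authors' deposited table. SULTR4;2 (AT3G12520, chromosome 3, 3967816 to 3972135) had 10.4 RPKM in hda6 (rebuilt), 24.6 RPKM in ldl1/2, 13.1 RPKM in the hda6/ldl1/2-labelled samples and 10.9 RPKM in WT. It stood at -0.01 in hda6, and was higher by 1.15 in ldl1/2 (FDR listed at 0) and by 0.40 in the hda6/ldl1/2-labelled samples (FDR 0.00829) in the authors' deposited table.

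**Figure D1:**
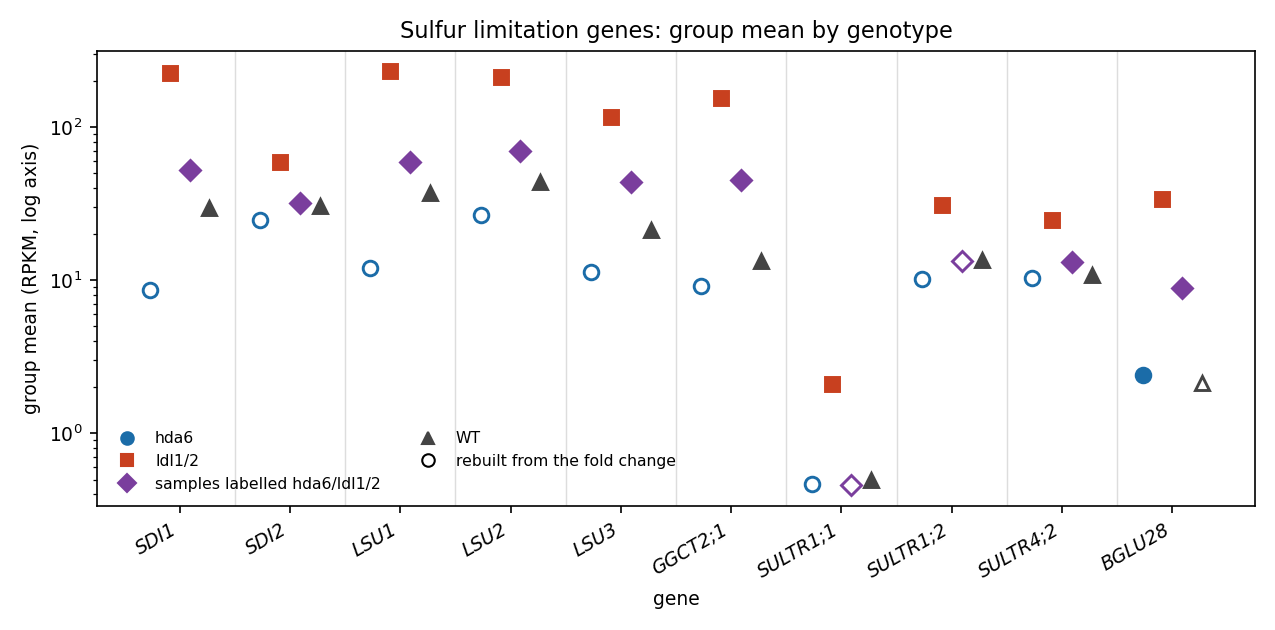
Group means of the 10 genes in RPKM on a log axis, by genotype; filled symbols are the authors' means and open symbols were rebuilt from the fold change. Squares for ldl1/2 lie highest for every gene, from 2.1 RPKM for SULTR1;1 to 230.0 RPKM for LSU1.

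Read by genotype, all 10 genes were higher past the FDR in ldl1/2, a call made for 3.75% of the 24905 genes with a fold change in the authors' deposited table. Their median log2 fold change was 2.32, beside -0.01 over the 18928 genes of at least 1 RPKM. Ranked from the highest fold change among those 18928 genes, BGLU28 stood at place 15, GGCT2;1 at 24, SDI1 at 37, and the lowest of the 10, SDI2, at 405. SULTR1;1 is in this ranking only through its ldl1/2 mean. In hda6 5 of the 10 were lower past the FDR (SDI1, LSU1, LSU2, LSU3 and SULTR1;2), a call made for 3.58% of genes, and none was higher, a call made for 4.05%, in the authors' deposited table. The median there was -0.42, beside -0.01 over 18985 genes. In the hda6/ldl1/2-labelled samples 7 of the 10 were higher past the FDR, a call made for 8.61% of genes, and none was lower, a call made for 6.4%, in the authors' deposited table. The median was 0.79, beside -0.01 over 19052 genes, and SDI2, SULTR1;1 and SULTR1;2 were the genes that did not pass. A log2 fold change of 1 or more was listed for 0 of the 10 in hda6 (2.01% of genes of at least 1 RPKM), for 9 in ldl1/2 (1.7%) and for LSU3, GGCT2;1 and BGLU28 in the hda6/ldl1/2-labelled samples (3.39%) in the authors' deposited table. The 3 comparisons share the WT samples, so their counts are not independent of one another, and since the genes were chosen with these values known, the counts are given beside the shares of all genes and nothing is read from them.

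**Figure D2:**
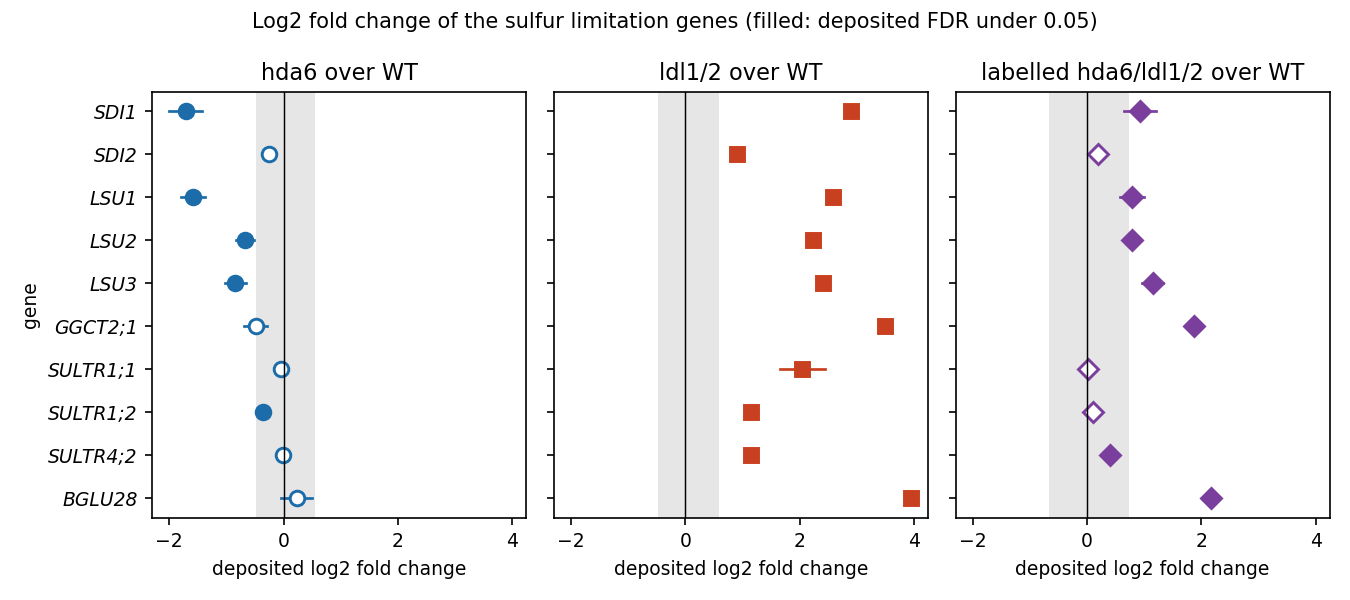
Deposited log2 fold change of each gene against WT in the 3 tables; bars are the standard error implied by the p-value where one could be computed, and grey bands hold the middle of all genes of at least 1 RPKM, from the 5th to the 95th percentile. In ldl1/2 all 10 genes lie right of the band, in hda6 SDI1, LSU1, LSU2, LSU3 and GGCT2;1 lie at or left of its edge.

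The samples labelled hda6/ldl1/2 can also be set against the other mutants by subtracting log2 fold changes, in which the WT term drops out. No test of these differences is possible from the tables. Against ldl1/2 all 10 genes were lower in value, by log2 differences between -2.03 for SULTR1;1 and -0.71 for SDI2. For 8 of the 10 the difference was 1 or more in size, as for SDI1 with 51.9 RPKM in the hda6/ldl1/2-labelled samples and 226 RPKM in ldl1/2 (-1.97). A value that far lower was found for 3.07% of 18603 genes of at least 1 RPKM in every table, among which SULTR1;1 is not. The 10 genes were chosen with values in ldl1/2 known, and this difference reuses those values, so nothing is read from the count. Against hda6 the 10 genes had log2 differences between 0.06 for SULTR1;1 and 2.64 for SDI1. Deposited log2 fold changes exceed log2 RPKM ratios by offsets of 0.06 in hda6 and 0.13 in the hda6/ldl1/2-labelled samples. These offsets stay in the differences. The rebuilt means of SULTR1;1 went the other way, 0.460 RPKM in the hda6/ldl1/2-labelled samples and 0.465 RPKM in hda6, so no direction is read for it. For SDI1 and LSU1 the difference between the hda6/ldl1/2-labelled samples and hda6 (2.64 and 2.37) was close in value to that between ldl1/2 and WT (2.90 and 2.59). For BGLU28 it was 1.94, against 3.95 between ldl1/2 and WT. For SULTR1;1 it was 0.06, against 2.05 between ldl1/2 and WT. These pairs of genotypes share no sample.

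**Figure D3:**
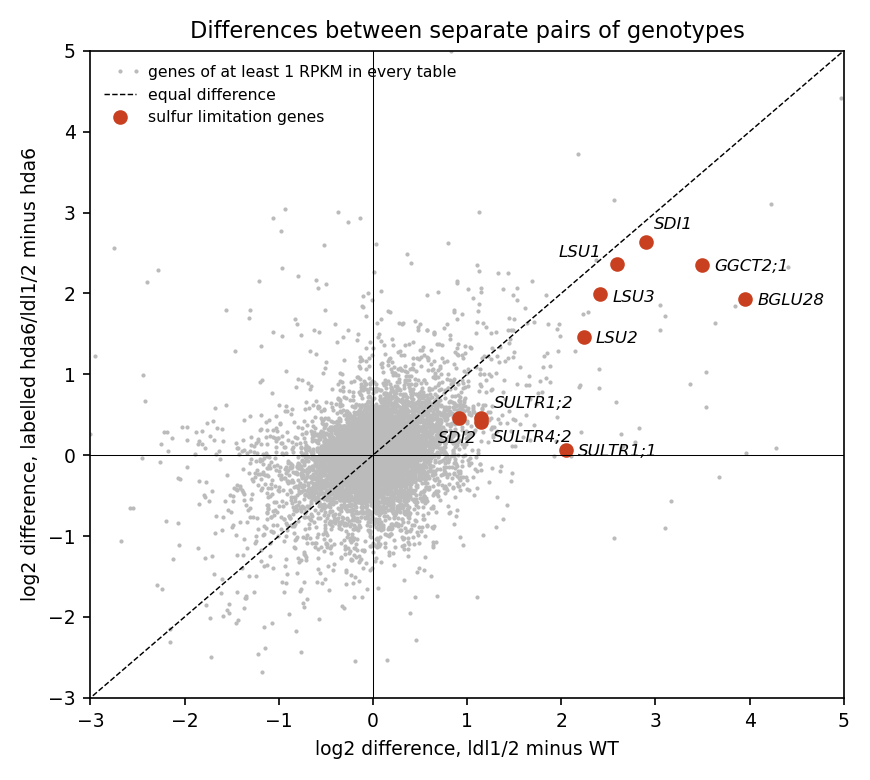
Log2 difference between ldl1/2 and WT (horizontal) and between the hda6/ldl1/2-labelled samples and hda6 (vertical), for 18603 genes of at least 1 RPKM in every table (grey; a few lie outside the axes) and the 10 genes (red). All 10 lie below the dashed line of equal difference, SDI1 and LSU1 nearest to it and SULTR1;1 and BGLU28 farthest.

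The genes also differed in the error of their fold changes. If the deposited p-values are two-sided normal, each implies a standard error of the log2 fold change. For SDI1 it was 0.29 in hda6 and 0.28 in the hda6/ldl1/2-labelled samples, which is 2.5 times the median of genes of like level (within 1.5-fold) in both tables. LSU1 (1.87 times in the hda6/ldl1/2-labelled samples), LSU3 (1.56 times) and LSU2 (1.38 times) also lay above that median. GGCT2;1 had an implied standard error of 0.19 in hda6, 1.63 times the median. SDI2, SULTR1;2 and SULTR4;2 lay at 1.00, 0.96 and 0.98 times the median in the hda6/ldl1/2-labelled samples. SULTR1;1, the least abundant of the genes, had an implied standard error of 0.40 in ldl1/2, 1.52 times the median of genes of like level. The tables hold no values per library, so the values behind these errors cannot be shown.

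**Figure D4:**
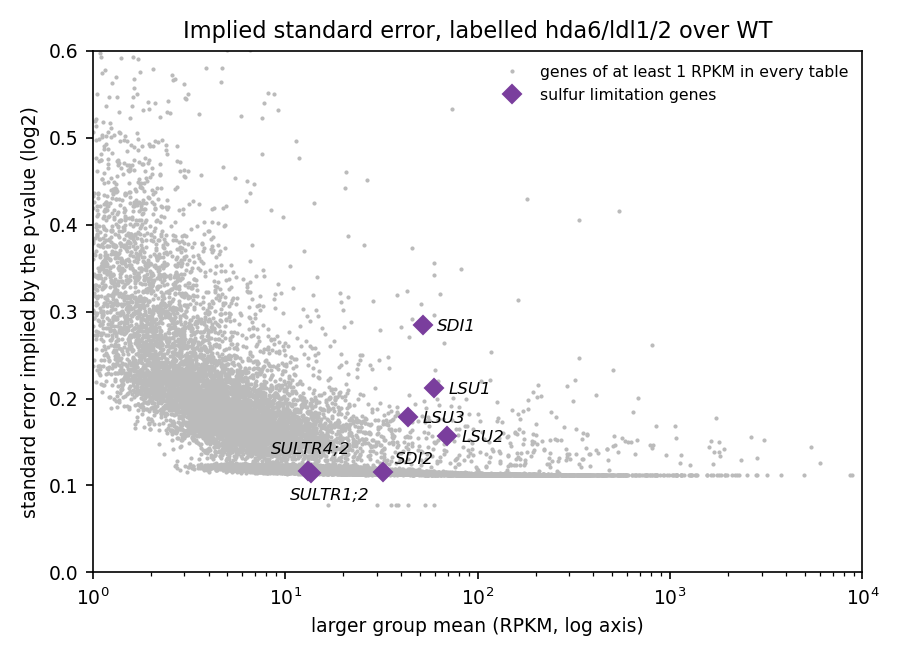
Standard error implied by the p-value against the larger group mean (log axis) in the comparison of the hda6/ldl1/2-labelled samples with WT, for genes of at least 1 RPKM in every table (grey; a few lie above the axis) and the 7 of the 10 genes for which it could be computed (diamonds). SDI1 (0.28) and the LSU genes stand above the narrow band in which SDI2, SULTR1;2 and SULTR4;2 lie.

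Of 40 other genes of sulfur uptake, assimilation and regulation and relatives of the 10 genes, 10 rose and 5 fell past the FDR in ldl1/2, 1 rose and 3 fell in hda6, and 5 rose and 2 fell in the hda6/ldl1/2-labelled samples in the authors' deposited table. These calls were made for 3.75% and 3.2% of all genes in ldl1/2, 4.05% and 3.58% in hda6, and 8.61% and 6.4% in the hda6/ldl1/2-labelled samples. Nothing is read from counts this small where they lie near those shares, as for the 1 gene that rose in hda6 and the 2 that fell in the hda6/ldl1/2-labelled samples. The median log2 fold changes of the 40 genes were 0.10 in ldl1/2, -0.06 in hda6 and 0.16 in the hda6/ldl1/2-labelled samples. Among 9 other sulfate transporters 5 rose in ldl1/2, among them SULTR3;4 (0.90) and SULTR4;1 (0.58), the vacuolar partner of SULTR4;2, in the authors' deposited table. SULTR3;5 rose in all 3 comparisons, by 0.59 in hda6, 0.58 in ldl1/2 and 0.55 in the hda6/ldl1/2-labelled samples, and SULTR3;1 fell by 0.87 in hda6 and 0.54 in the hda6/ldl1/2-labelled samples, in the authors' deposited table.

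Among 12 genes of sulfate activation and reduction 2 rose and 4 fell in ldl1/2 in the authors' deposited table. APR3, an APS reductase at the step that commits sulfate to reduction, had 89.7 RPKM in hda6 (rebuilt), 218 RPKM in ldl1/2, 134 RPKM in the hda6/ldl1/2-labelled samples and 109 RPKM in WT. It rose by 0.96 in ldl1/2 and by 0.43 in the hda6/ldl1/2-labelled samples (FDR 0.00234) in the authors' deposited table. APK2 and APK1, APS kinases that supply activated sulfate for glucosinolates, went the other way in ldl1/2, with log2 fold changes of -1.14 and -0.60 past the FDR in the authors' deposited table. APS3, an ATP sulfurylase, stood at -0.22 in ldl1/2 (FDR 0.457) and rose by 0.53 in the hda6/ldl1/2-labelled samples in the authors' deposited table.

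The microRNA miR395, known to be induced by sulfur limitation, targets APS1, APS3, APS4 and SULTR2;1, and these targets were singled out with their values known. In ldl1/2 APS1 fell by 0.52 and APS4 by 0.45, while SULTR2;1 rose by 0.38 (FDR 0.0177), in the authors' deposited table. APS3 did not pass there, at -0.22 (FDR 0.457) in the authors' deposited table. The 6 MIR395 genes of the annotation were listed at 0 RPKM with no fold change in all 3 tables. The mature microRNA was not measured here, so no level of miR395 is read from these values.

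Of 10 genes of cysteine and glutathione synthesis 1 rose and 1 fell in ldl1/2 in the authors' deposited table. SERAT3;2, a serine acetyltransferase that makes O-acetylserine, had 2.98 RPKM in hda6 (rebuilt), 11.3 RPKM in ldl1/2, 5.60 RPKM in the hda6/ldl1/2-labelled samples and 3.50 RPKM in WT. It rose by 1.65 in ldl1/2 and by 0.81 in the hda6/ldl1/2-labelled samples, while GSH1, the first enzyme of glutathione synthesis, fell by 0.43 in ldl1/2, in the authors' deposited table. SERAT2;2, another serine acetyltransferase, fell by 0.39 in hda6 (FDR 0.015) in the authors' deposited table. SHM7, a hydroxymethyltransferase gene also known to respond to low sulfur, had 26.0 RPKM in hda6 (rebuilt), 89.1 RPKM in ldl1/2, 36.3 RPKM in the hda6/ldl1/2-labelled samples and 32.0 RPKM in WT. It rose by 1.44 in ldl1/2 (FDR listed at 0) in the authors' deposited table. The transcript of SLIM1, named here after its values were seen, stood at -0.09 in hda6, -0.16 in ldl1/2 and -0.31 in the hda6/ldl1/2-labelled samples (FDR 0.0968) in the authors' deposited table.

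Among 7 relatives of the 10 genes LSU4 rose in ldl1/2, by 1.35 (FDR 4.64e-06), and GGCT2;2 fell by 0.59 in the hda6/ldl1/2-labelled samples in the authors' deposited table. LSU3 and LSU1 lie on chromosome 3 with 1760 bases between them, and LSU4 and LSU2 on chromosome 5 with 1914 bases between them. The coding sequence of LSU2 was 87.0% identical to that of LSU4 and LSU1 was 80.7% identical to LSU3, but the longest run of identical bases that the transcripts of either pair share was 30 bases, short of a read of 150 bases. For SDI1 and SDI2 the longest shared run was 17 bases, for SULTR1;1 and SULTR1;2 20 bases, and for SULTR4;2 and SULTR4;1 40 bases. The sources used here do not say how reads that match several genes were assigned.

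Genes of aliphatic glucosinolate synthesis, which SDI1 is known to restrain through the transcription factor MYB28, fell in ldl1/2. A part of SDI1 in these values was not tested. All 6 genes listed fell past the FDR there, a call made for 3.2% of genes, and their median was -1.77 in the authors' deposited table. MYB28 itself fell least of the 6, with a log2 fold change of -0.44 (FDR 0.00434) in the authors' deposited table. MYB29, a transcription factor of this pathway, had 12.01 RPKM in hda6 (rebuilt), 2.79 RPKM in ldl1/2 (rebuilt), 10.7 RPKM in the hda6/ldl1/2-labelled samples (rebuilt) and 13.1 RPKM in WT. BCAT4, CYP79F1 and MAM1, enzymes of the pathway, fell in ldl1/2, with log2 fold changes of -2.18, -1.85 and -1.69 in the authors' deposited table. In hda6 none of the 6 passed the FDR and in the hda6/ldl1/2-labelled samples 1 rose in the authors' deposited table, with medians of 0.07 and 0.25. That this list falls in ldl1/2 was known when it was chosen.

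**Figure D5:**
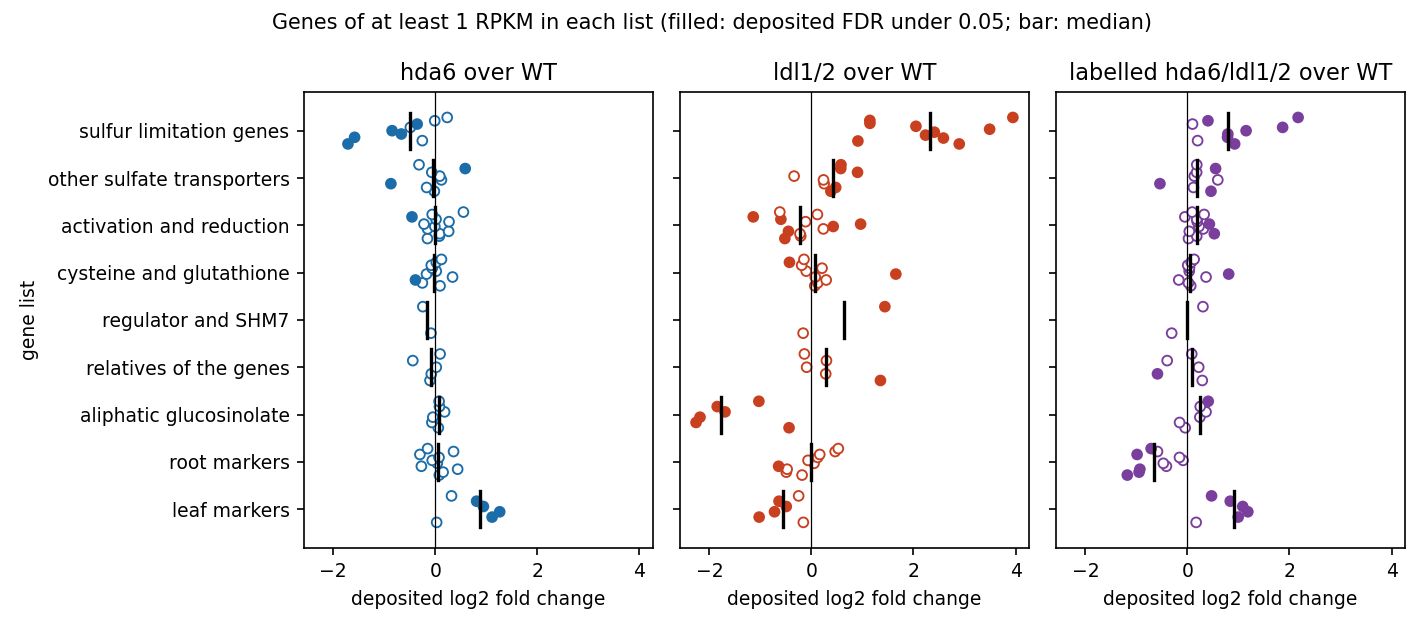
Deposited log2 fold change against WT of the genes of each list with a mean of at least 1 RPKM; filled points have a deposited FDR under 0.05 and black bars are medians of the points shown. In ldl1/2 the sulfur limitation genes lie highest and the aliphatic glucosinolate genes lowest, and the leaf markers lie right of 0 in hda6 and the hda6/ldl1/2-labelled samples and left of 0 in ldl1/2.

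A whole seedling holds root and shoot, and in such bulk samples fewer cells of a type and less RNA per cell cannot be told apart. The shares of all genes called higher and lower past the FDR were 4.05% and 3.58% in hda6 and 3.75% and 3.2% in ldl1/2. In the hda6/ldl1/2-labelled samples they were 8.61% and 6.4%. Of 12 root markers, none passed the FDR in hda6, 1 fell in ldl1/2, from which nothing is read, and 5 fell in the hda6/ldl1/2-labelled samples in the authors' deposited table. Their summed means were 86.4 RPKM in hda6, 95.9 RPKM in ldl1/2, 51.6 RPKM in the hda6/ldl1/2-labelled samples and 94.5 RPKM in WT. None of the 12 was at 0, and the defining Casparian strip gene CASP1 had 20.6 RPKM in hda6, 18.3 RPKM in ldl1/2 (rebuilt), 8.21 RPKM in the hda6/ldl1/2-labelled samples (rebuilt) and 20.4 RPKM in WT. In ldl1/2, where SULTR1;1 and SULTR1;2 were high, the summed root level was thus 95.9 RPKM against 94.5 RPKM in WT. In the hda6/ldl1/2-labelled samples it was the lowest of the 4 genotypes, and its part in the values of the root transporters there was not tested. Of 6 leaf markers 4 rose in hda6, 4 fell in ldl1/2 and 5 rose in the hda6/ldl1/2-labelled samples in the authors' deposited table, opposite in sign to most of the 10 genes in hda6 and ldl1/2, and their part in the results was not tested either. Summed means of all 6 leaf markers were 11883 RPKM in hda6, 9400 RPKM in ldl1/2, 12289 RPKM in the hda6/ldl1/2-labelled samples and 10717 RPKM in WT, and none of the 6 was at 0.

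Over the 3 log2 fold changes, the gene nearest to BGLU28, which had the largest fold change of the 10, was GGCT2;1 at a Euclidean distance of 0.91. Outside the 10 genes the nearest of 18603 were the glutathione transferase gene GSTF12 (1.44), AT1G09500 (1.61), AT1G75290 (1.70), the phosphate transporter gene PHT1;5 (1.78) and the dihydroflavonol reductase gene DFR (1.78). All 5 were higher in ldl1/2, by 2.37 to 3.84, which follows from choosing genes near BGLU28 in these same fold changes. The distance rests on 3 comparisons that share WT.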

How the data were processed

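RNA of seedlings of 4 genotypes was sequenced with paired reads of 150 bases, per the labels, and Bowtie and TAIR10 are named, per the submitters' processing notes. The deposited tables give the larger group mean in RPKM, a unit not named in the headers but read from the values: with a tolerance of 0.3%, 98.9 to 99.8% of the lowest means of each group fell on steps of whole reads, and none did after a shift. The steps used numbers of libraries that were set and library sizes fitted to these same means. The log2 fold change, signed fold change, p-value and FDR are the authors' own, per the file headers; the sources used here do not give their normalization and test. Adjusting the deposited p-values over all 34262 genes by Benjamini-Hochberg gave the deposited FDR to within 9.13e-05, and 9357 genes had no fold change.

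A WT mean that several tables share was taken as WT. The deposited log2 fold change less the log2 ratio of RPKM means had a median of 0.06 (hda6), -0.03 (ldl1/2) and 0.13 (hda6/ldl1/2-labelled), and the smaller mean of each gene was rebuilt with this offset. WT means of the 10 genes rebuilt from different tables deviated by at most 1.81%. Genes were matched by position to TAIR10.1 (33191 to 1 locus; all 19493 locus names that could be compared were equal). No library values are in the tables, so no test between samples was run, and depth sets only counting error.

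The genes and lists were chosen with earlier results of these data known. Named genes are the 10 genes, the targeted genes, up to 4 genes of each list past the FDR in at least 1 comparison, ranked by their largest fold change, and the 5 nearest patterns. APS1, APS4, SULTR2;1, SLIM1, MYB28, CASP1, the MIR395 genes and the genes that flank the LSU pairs lie outside this rule and were named with their values known. Alternatives were an FDR of 0.01, a minimum of 1 RPKM, a log2 fold change of 1, the RPKM ratio, a pseudocount of 1 and centring. Python 3.11.15, pandas 2.3.3, SciPy 1.17.1 and Biopython 1.88 were used.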

Additional observations from a re-analysis of the deposited data

Results flagged for a closer look

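BGLU28 differed in sign between the pairs of genotypes that differ in the hda6 label: the log2 difference was 0.23 between hda6 and WT (2.41 RPKM in hda6 and 2.14 RPKM in WT) and -1.78 between the hda6/ldl1/2-labelled samples and ldl1/2 (8.86 RPKM in the hda6/ldl1/2-labelled samples and 33.8 RPKM in ldl1/2). The difference between these values was not tested, and 0.23 did not pass the FDR in the authors' deposited table.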

How the results depend on the processing

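Asking for a log2 fold change of at least 1 in size beside the FDR left 2 of the 10 genes lower in hda6 (5 without it) and 3 higher in the hda6/ldl1/2-labelled samples (7 without it). An FDR of 0.01 left 1 of the 40 other sulfur genes lower in the hda6/ldl1/2-labelled samples (2 at 0.05). The shares of all genes under these stricter settings were not counted, so nothing is read from the counts that they left. The other counts stayed within 1.5 times under the alternatives run, and the median of the genes ran from -0.49 to -0.41 in hda6, 2.27 to 2.33 in ldl1/2 and 0.66 to 0.79 in the hda6/ldl1/2-labelled samples. The ends at -0.49 (a minimum of 1 RPKM) and 2.27 (the RPKM ratio) each rest on 9 of the 10 genes, so a change of genes enters these ranges. Of the single values of the 10 genes, centring moved none of 30 by more than its implied standard error (the median of genes of like level where none could be computed), the RPKM ratio moved 3 of 16 and a pseudocount of 1 moved 7 of 30, among them SULTR1;1 in ldl1/2 (1.05) and SULTR1;2 in the hda6/ldl1/2-labelled samples, which turned to -0.03 without having passed the FDR. In the hda6/ldl1/2-labelled samples the RPKM ratio was lower than the deposited value for the 7 genes with both means in the tables. No paired analysis was possible because each genotype has 1 sample, and no replicate could be left out, since the tables hold group means only. With 1 sample listed per genotype and no values per library, differences between plants could not be measured here.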

Other observations

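The genes that flank the LSU pairs were looked at after the values of the LSU genes had been seen. Only flanking genes of at least 1 RPKM in at least 1 comparison were taken. Of 4 flanking genes around LSU3 and LSU1 (AT3G49550, AT3G49560, ATG13 and UBP26) none passed the FDR in any comparison, with log2 fold changes between -0.15 and 0.20 in the authors' deposited table. Of the 4 around LSU4 and LSU2, AT5G24650, EMB2820 and AT5G24680 did not pass either. AT5G24640, which encodes an uncharacterized protein, had log2 fold changes of -1.49 in hda6 (FDR 0.0719), 1.62 in ldl1/2 (FDR 0.00707) and 0.32 in the hda6/ldl1/2-labelled samples (FDR 0.978) in the authors' deposited table. In value this is the same order of genotypes as LSU2, but only the difference in ldl1/2 passed the FDR.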
